A study of Mus musculus with 18 samples.

Results

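The chemokine ligand genes were read from sorted endothelial cells of the mouse cortex after sham surgery or stroke. Members were taken by symbol: every gene named Ccl or Cxcl followed by a digit, with Cx3cl1 and Xcl1. This gave 37 of the 21638 genes measured, of which 12 carried a CXC symbol and 23 a CC symbol. Of the 37 members 25 reached 10 counts in 3 or more of the 18 libraries (8 CXC, 16 CC and Cx3cl1), and these are the members tested. The 12 that did not reach it were Ccl1, Ccl7, Ccl8, Ccl11, Ccl12, Ccl21b, Ccl26, Cxcl3, Cxcl5, Cxcl13, Cxcl17 and Xcl1. The platelet chemokines Pf4 and Ppbp are CXC chemokines by family but not by symbol, and are used here as platelet markers.

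Cells carrying CD31 and lacking CD41 and CD45 were sorted on day 7 from adult brain, and messenger RNA was amplified with a SMART-Seq kit. Stroke was modelled by middle cerebral artery occlusion (MCAO). Wild-type sham and wild-type MCAO mice each gave libraries from the side of the surgery (ipsilateral) and from the opposite side (contralateral). Mice with MCAO and floxed Hdac2 or floxed Ezh2 alleles under the tamoxifen-inducible Cdh5-CreERT2 recombinase, written Hdac2 ECKO and Ezh2 ECKO, gave ipsilateral libraries. Tamoxifen at 75 mg/kg is listed for all 6 groups, the wild-type ones included. The Cdh5 promoter is active in endothelial cells at large, so the design did not limit the deletion to brain vessels. No group is labelled as carrying the recombinase alone or a deletion without occlusion. Each group had 3 libraries, and the labels do not say whether they came from separate mice, so p-values measure the spread between these libraries.

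Chemokines are small secreted proteins that bind glycosaminoglycans on the vessel wall and G-protein-coupled receptors on leukocytes. Inflammatory members are induced by cytokines through NF-kB and interferon-regulated factors, whereas homeostatic members are made without a stimulus. Brain endothelium presents chemokines on its luminal face, where they can activate the integrins of rolling leukocytes, and atypical receptors such as Ackr1 and Ackr3 carry or remove them.

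Library totals ran from 25791401 to 57576255 counts, and levels are given as CPM, a gene's count divided by the TMM-scaled library total and multiplied by 1e6, where 3 counts correspond to 0.0619 to 0.101 CPM. All 10 endothelial markers listed (Pecam1, Cdh5, Cldn5 and others) were above 0 in every library, with a summed level of 4679 to 8364 CPM. The pan-leukocyte gene Ptprc, which encodes CD45, was between 0.129 and 6.57 CPM. A pair of libraries stood apart by reads in 1464 olfactory and vomeronasal receptor genes, which endothelium is not known to use: these summed to 1883 CPM in MCAO contralateral library 1 and 2077 CPM in Ezh2 ECKO library 2, against 152 to 714 CPM in the other libraries. Of the 12 untested members 6 were highest in one of these libraries, and so were 3 of the tested members. Several results that rest on them are also given without them, and others with the values of the single libraries. Fewer cells of a type and less RNA per cell cannot be told apart in such bulk samples.

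**Figure D1:**
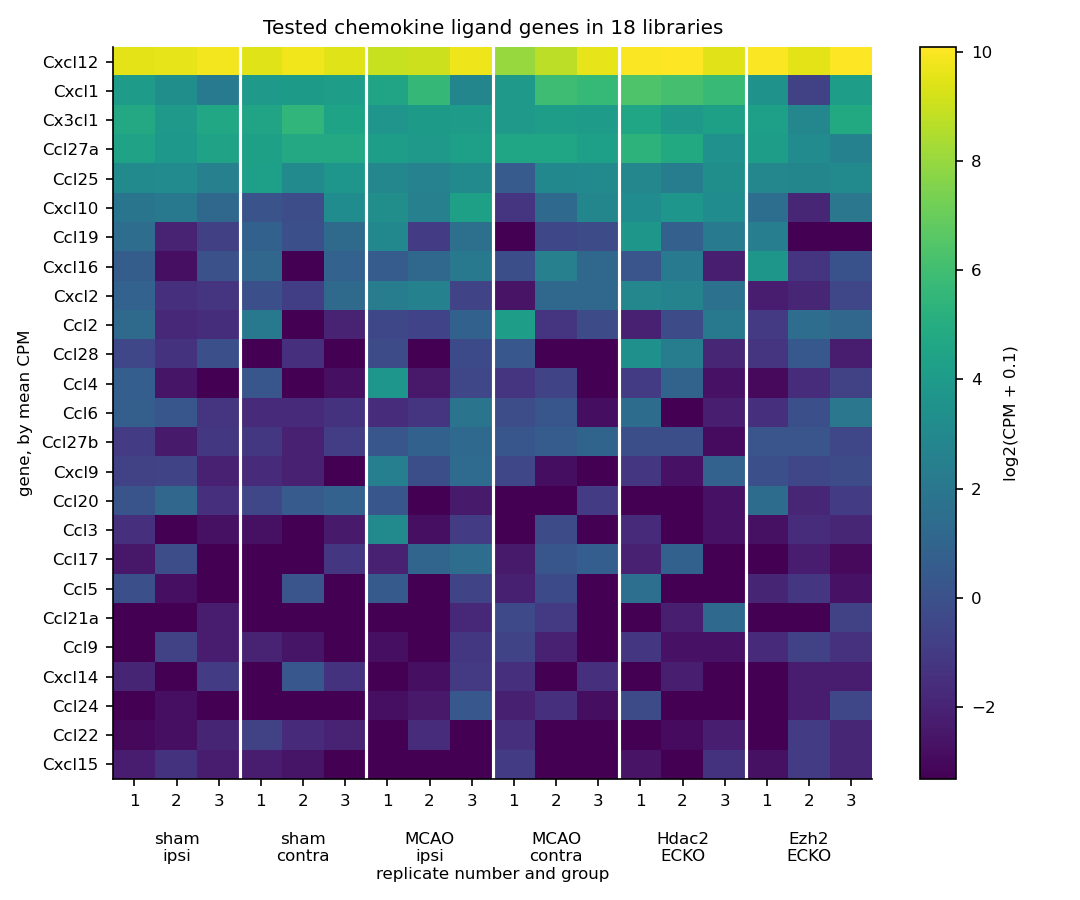
Level of the 25 tested chemokine ligand genes (rows, by mean level) in the 18 libraries (columns, by group and replicate number), as log2(CPM + 0.1). Cxcl12 is the bright top row in every library, and 8 of the 25 genes were above 0 in all 18 libraries.

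One gene dominated the family. Cxcl12, the homeostatic CXCR4 ligand that holds stem cells and lymphocytes in their niches, averaged 767 CPM and held 76.3% to 95.5% of the summed CPM of all members in a library. This share was not scaled by length, and Cxcl12 has the longest gene model of the members, 8176 bases, which raises its share. Per kilobase of gene model, the scale on which genes can be compared, Cxcl12 stood at 93.8 CPM per kb. By group it averaged 59.3 (MCAO contralateral) to 117 CPM per kb (Ezh2 ECKO), where Cxcl1 averaged 22.2 and 5.21 CPM per kb. The other members among the 8 with the highest mean CPM stood on that scale at 15.4 (Cxcl1), 8.43 (Ccl27a), 5.15 (Cx3cl1), 2.93 (Ccl19), 2.55 (Cxcl10), 1.10 (Ccl25) and 0.794 CPM per kb (Cxcl16). The shorter genes Ccl27b at 2.09, Ccl2 at 1.90, Ccl4 at 1.72 and Ccl17 at 1.15 CPM per kb lay between Cxcl10 and Ccl25, and Cxcl2 at 1.06 CPM per kb between Ccl25 and Cxcl16. The order from Cxcl1 down is not firm, because several of these genes varied more between libraries than they differed from their neighbours: Cxcl1 ran from 0.512 to 82.9 CPM and Ccl19 from 0 to 13.7 CPM.

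Cxcl12 lies on chr6:117168535-117181367 (+ strand, GRCm38). Its level was 751, 769 and 917 CPM in sham ipsilateral libraries 1 to 3 and 692, 882 and 699.65 CPM in sham contralateral ones. After MCAO it was 492, 545 and 864 CPM ipsilaterally and 264, 431 and 759 CPM contralaterally. In the deletions it was 1039, 1089 and 729 CPM with Hdac2 ECKO and 1043, 748 and 1089.8 CPM with Ezh2 ECKO. The 4 lowest libraries were all from MCAO mice without a deletion, but each MCAO group also held a library within or near the sham range, so the groups overlapped.

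Cx3cl1, or fractalkine, is a membrane-bound ligand that neurons and endothelium make and that microglia read through Cx3cr1. It measured 27.0, 14.4 and 25.2 CPM in sham ipsilateral and 22.5, 45.8 and 21.9 CPM in sham contralateral libraries. It measured 12.5, 15.8 and 17.0 CPM in MCAO ipsilateral and 15.3, 17.6 and 17.1 CPM in MCAO contralateral libraries. Sham ipsilateral library 2 fell inside the MCAO range, and the other 5 sham libraries were above all 6 MCAO libraries. Hdac2 ECKO libraries stood at 23.1, 14.5 and 19.5 CPM and Ezh2 ECKO libraries at 18.8, 7.34 and 28.6 CPM.

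Ccl25, a CCR9 ligand of thymus and gut, and Ccl27a, a CCR10 ligand best known from skin, were found in every library. Ccl25 ran from 4.81 to 10.2 CPM in 15 libraries. The exceptions were sham contralateral libraries 1 and 3, at 19.2 and 13.1 CPM, and MCAO contralateral library 1, at 1.32 CPM. Ccl27a ran from 14.3 to 28.7 CPM outside 4 deletion libraries, which were at 41.1 and 10.8 CPM (Hdac2 ECKO 1 and 3) and 8.76 and 5.79 CPM (Ezh2 ECKO 2 and 3). Ccl25 overlaps Elavl1 and Ccl27a overlaps Il11ra1 on the opposite strand, and since no strand setting is given for the counting, their reads cannot be told apart there. The same holds for Ccl2 (Gm17268, over 1883 bases), Ccl19 and Ccl21a (4930578G10Rik, over 2053 and 1134 bases) and Cxcl16 (Zmynd15, over 552 bases).

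Cxcl1 and Cxcl2 are ligands of CXCR2 that draw neutrophils and are classic NF-kB targets of activated endothelium. They were the neutrophil-directed members with clear signal, as Cxcl3 and Cxcl5 were untested and Cxcl15 stayed at or below 0.408 CPM. Their promoters are shown with that of Cxcl10, because these 3 genes were higher with Hdac2 ECKO than with Ezh2 ECKO with no overlap between libraries, and with that of Cxcl12, the dominant homeostatic member. In that comparison 4 of 25 members (16%) did not overlap, beside 12.1% of all genes, and edgeR called 0 members. The sequences come from RefSeq on GRCm38.p6, end at the last base before the gene's first annotated exon, and cover chr5:90890995-90891240 (+) for Cxcl1, chr5:90903649-90903870 (+) for Cxcl2, chr5:92348890-92349139 (- strand) for Cxcl10 and chr6:117168285-117168534 (+) for Cxcl12. Capitals mark matches to the 10-base NF-kB consensus (kB) or, for the first run in Cxcl10, to the interferon-stimulated response element (ISRE), searched as 2 copies of GAAA spaced by 2 bases.
Cxcl1: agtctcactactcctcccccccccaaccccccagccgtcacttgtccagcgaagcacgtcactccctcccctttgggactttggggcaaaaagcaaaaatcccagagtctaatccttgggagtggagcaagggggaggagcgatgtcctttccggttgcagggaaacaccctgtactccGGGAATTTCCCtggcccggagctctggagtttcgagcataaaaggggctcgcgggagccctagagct
Cxcl2: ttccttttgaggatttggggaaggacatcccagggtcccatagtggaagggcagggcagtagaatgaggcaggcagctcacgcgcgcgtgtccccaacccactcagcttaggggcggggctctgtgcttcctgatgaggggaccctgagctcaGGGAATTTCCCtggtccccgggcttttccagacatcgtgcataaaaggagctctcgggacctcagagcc
Cxcl10: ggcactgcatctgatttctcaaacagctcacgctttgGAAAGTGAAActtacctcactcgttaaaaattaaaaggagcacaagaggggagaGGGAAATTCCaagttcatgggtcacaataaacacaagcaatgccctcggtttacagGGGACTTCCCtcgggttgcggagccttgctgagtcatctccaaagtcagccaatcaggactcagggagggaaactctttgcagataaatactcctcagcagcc
Cxcl12: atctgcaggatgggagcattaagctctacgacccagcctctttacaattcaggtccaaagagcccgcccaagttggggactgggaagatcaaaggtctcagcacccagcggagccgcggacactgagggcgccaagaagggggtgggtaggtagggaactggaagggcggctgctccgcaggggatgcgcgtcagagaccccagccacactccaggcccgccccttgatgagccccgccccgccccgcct
Cxcl1 and Cxcl2 carry the same 11-base run, in which 2 kB matches overlap, at 71 to 61 bases and 97 to 87 bases before the start. Positions count from the RefSeq start, which lies 4 bases past the end of the printed stretch for Cxcl1 and 28 bases past it for Cxcl2, where the annotated first exon begins earlier. Cxcl10 carries kB matches at 159 to 150 and 103 to 94 bases before the start and the ISRE match at 213 to 204 bases. No match lies in the Cxcl12 window. On either strand a kB match lies in 3.9% and an ISRE match in 2.98% of 32851 RefSeq promoters over the 250 bases before the start. Of the 33 promoters in that table that belong to 27 members, 6 (18.2%) had a kB match and 3 (9.09%) an ISRE match. Those with a kB match belonged to Cxcl1, Cxcl2, Cxcl3, Cxcl10, Ccl9 and Ccl20. Between the deletions Ccl20 went the other way, lower with Hdac2 ECKO with no overlap. The promoter of Cxcl9 had neither match. These matches are letters in a window, and factor binding was not measured.

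Cxcl1 measured 16.6, 10.0 and 4.76 CPM in sham ipsilateral libraries and 14.7, 15.7 and 18.3 CPM in sham contralateral libraries. After MCAO it measured 22.6, 49.6 and 7.13 CPM ipsilaterally and 14.5, 59.8 and 50.7 CPM contralaterally. It was 82.9, 69.3 and 53.3 CPM with Hdac2 ECKO and 11.2, 0.512 and 17.6 CPM with Ezh2 ECKO. All 3 Hdac2 ECKO libraries were above every MCAO ipsilateral and every Ezh2 ECKO library, while the MCAO libraries overlapped the sham range and reached above it.

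Cxcl2, its neighbour on chromosome 5, averaged 1.06 CPM per kb, against 15.4 for Cxcl1, and had the same highest group. Sham libraries held 1.73, 0.262 and 0.321 CPM ipsilaterally and 0.869, 0.471 and 2.40 CPM contralaterally. MCAO libraries held 4.97, 5.87 and 0.574 CPM ipsilaterally and 0.0628, 2.13 and 2.23 CPM contralaterally. Hdac2 ECKO libraries held 7.27, 6.20 and 3.12 CPM and Ezh2 ECKO libraries 0.108, 0.171 and 0.615 CPM, so the deletion groups did not overlap. MCAO ipsilateral library 3 was low for both Cxcl1 and Cxcl2.

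Cxcl9 and Cxcl10 are interferon-induced ligands of CXCR3 that draw activated T and NK cells. Cxcl10 measured 3.63, 4.15 and 2.14 CPM in sham ipsilateral and 9.80, 5.56 and 19.7 CPM in MCAO ipsilateral libraries, with no overlap. Contralaterally it measured 0.971, 0.807 and 8.98 CPM in sham and 0.314, 2.31 and 6.98 CPM in MCAO. Hdac2 ECKO libraries, at 9.05, 12.9 and 9.06 CPM, lay within the MCAO ipsilateral range, and Ezh2 ECKO libraries, at 2.80, 0.171 and 3.91 CPM, lay below it.

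Cxcl9 measured 0.495, 0.572 and 0.134 CPM in sham ipsilateral and 5.43, 0.839 and 2.49 CPM in MCAO ipsilateral libraries. On the contralateral side it did not exceed 0.628 CPM in either group, so the MCAO ipsilateral libraries lay above both sham groups and above the MCAO contralateral group. With deletion it was 0.330, 0.0602 and 1.76 CPM (Hdac2 ECKO) and 0.863, 0.626 and 0.783 CPM (Ezh2 ECKO). Cxcl10 overlaps Art3 on the opposite strand over its whole length of 2252 bases.

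**Figure D2:**
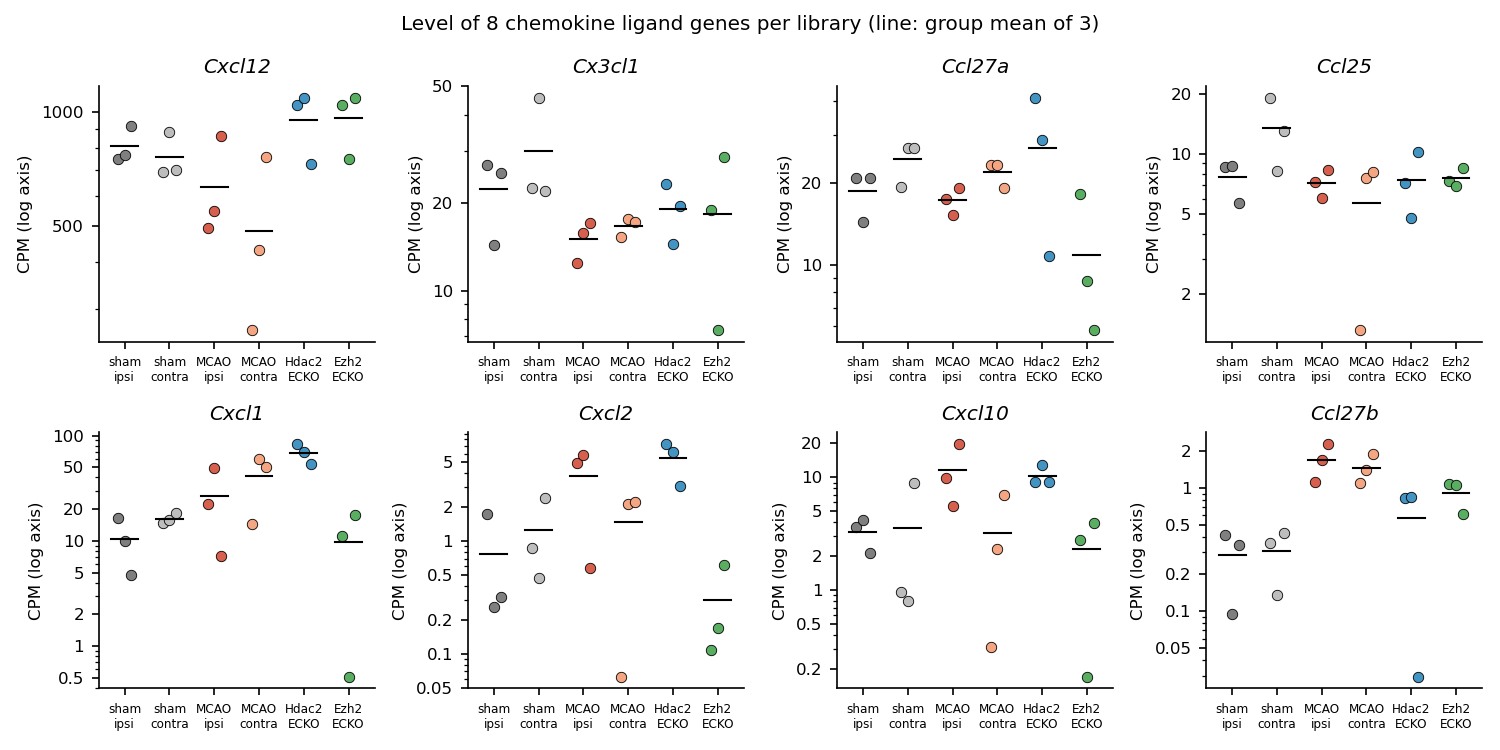
Level in CPM (log axes) of 8 members in each library (points) with the mean of the 3 libraries of each group (lines). Cxcl1, Cxcl2 and Cxcl10 separate the 2 deletion groups, and Ccl27b separates the 6 MCAO libraries without a deletion from the 6 sham libraries. Of the tested members 16% did not overlap between the deletions, beside 12.1% of all genes. Between MCAO and sham over both sides it was 4%, beside 1.42%.

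Ccl27b was the member that separated occlusion from sham on both sides. It was at 0.412, 0.0953 and 0.348 CPM in sham ipsilateral and 0.358, 0.135 and 0.432 CPM in sham contralateral libraries. MCAO libraries were at 1.12, 1.70 and 2.27 CPM ipsilaterally and 1.10, 1.39 and 1.91 CPM contralaterally. Hdac2 ECKO libraries were at 0.826, 0.843 and 0.0294 CPM and Ezh2 ECKO libraries at 1.08, 1.05 and 0.615 CPM, all below the MCAO ipsilateral libraries. Ccl27b is a near copy of Ccl27a, and 97.9% of its 100-base transcript windows also occur in Ccl27a or Gm13306, so its counts are uncertain: the way reads shared by several genes were counted is not given in the sources used here. Of Ccl27a's windows 26.5% occur in other genes. The 2 genes are alike before their start too, as the following RefSeq stretches (GRCm38.p6, outside annotated exons) show for chr4:41770270-41770462 (- strand, inside Ccl27a and before its shorter transcript) and chr4:42655013-42655205 (+ strand, before Ccl27b). Capitals mark the 2 bases of 193 that differ, an identity of 99.0%.
Ccl27a: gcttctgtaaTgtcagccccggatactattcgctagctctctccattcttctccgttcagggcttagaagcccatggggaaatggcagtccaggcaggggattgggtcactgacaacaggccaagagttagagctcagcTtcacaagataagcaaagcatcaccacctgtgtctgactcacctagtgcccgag
Ccl27b: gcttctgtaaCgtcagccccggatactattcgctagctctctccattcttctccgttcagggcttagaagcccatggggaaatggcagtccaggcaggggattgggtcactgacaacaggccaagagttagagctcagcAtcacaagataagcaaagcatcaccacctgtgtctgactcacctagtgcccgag
Ccl21b (100% of windows), Ccl21a (50.3%) and Ccl19 (39.3%) also share sequence with other genes and are uncertain in the same way. Cxcl2 and Cxcl3 share 3.05% and 1.88% of their windows, and 30 members shared none.

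Several other members were highest in 1 or 2 libraries. Ccl2, the CCR2 ligand that draws monocytes, was at 17.8 CPM in MCAO contralateral library 1 and between 0 and 4.19 CPM elsewhere. Of the other CCR2 ligands, Ccl7, Ccl8 and Ccl12, none was tested. Ccl19, a CCR7 ligand that guides dendritic cells and T cells, was at 13.7 CPM in Hdac2 ECKO library 1 and at 7.64 CPM or less elsewhere. Ccl28, a mucosal CCR10 ligand, was at 10.5 and 4.91 CPM in Hdac2 ECKO libraries 1 and 2 and did not exceed 1.20 CPM elsewhere. Cxcl16, the transmembrane CXCR6 ligand, was at 13.5 CPM in Ezh2 ECKO library 1 and at 5.53 CPM or less elsewhere.

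Ccl3, Ccl4 and Ccl5 are inflammatory ligands that microglia, macrophages, T cells and NK cells make in quantity. MCAO ipsilateral library 1 held 8.34 CPM of Ccl3 and 13.0 CPM of Ccl4, while the other libraries held at most 0.741 CPM of Ccl3 and 1.81 CPM of Ccl4. The same library was the highest of all for 6 members: Ccl3, Ccl4, Ccl11, Cxcl9, Cxcl17 and Xcl1. The microglial marker P2ry12 was at 2.44, 7.55 and 4.02 CPM in the MCAO ipsilateral libraries and at 1.78 CPM or less in every other library. The 10 microglial markers summed to 83.9 to 88.5 CPM in MCAO ipsilateral, 34.2 to 43.9 CPM in sham ipsilateral, 46.1 to 64.0 CPM in sham contralateral, 38.1 to 93.6 CPM in MCAO contralateral, 61.2 to 80.8 CPM in Hdac2 ECKO and 49.1 to 61.2 CPM in Ezh2 ECKO libraries, and between 5 and 10 of them were above 0 in a library. Tmem119, which defines microglia, did not exceed 0.511 CPM and was at 0.182, 0.132 and 0.0957 CPM in the MCAO ipsilateral libraries. In MCAO ipsilateral library 1 the T and NK cell genes Nkg7 and Gzma were at 1.37 and 6.25 CPM, while Cd3e and Cd3d were at 0. The part of RNA from microglia or from T and NK cells in the levels of Ccl3 and Ccl4 was not tested.

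Ccl5 was detected in 11 libraries and was highest in Hdac2 ECKO library 1 at 2.91 CPM, MCAO ipsilateral library 1 at 1.28 CPM and sham contralateral library 2 at 1.08 CPM. Gzma, a granzyme of NK and T cells, was highest in the same 3 libraries in the same order, at 15.3, 6.25 and 5.92 CPM, and was at 1.28 CPM or less elsewhere. MCAO contralateral library 2 held 0.697 CPM of Ccl5 with no count of Gzma. Gzma is 1 of 6 T and NK cell markers. Of the others Nkg7, Cd3e and Cd3d were at 0 in Hdac2 ECKO library 1, and Cd3e and Cd3d were at 0 in MCAO ipsilateral library 1. The 6 T and NK cell markers summed to 0.381 to 3.05 CPM in sham ipsilateral, 0.179 to 7.74 CPM in sham contralateral, 0.331 to 7.75 CPM in MCAO ipsilateral, 0.109 to 4.02 CPM in MCAO contralateral, 0.361 to 15.5 CPM in Hdac2 ECKO and 0.377 to 2.16 CPM in Ezh2 ECKO libraries, with 2 to 6 of them above 0. Their part in the level of Ccl5 was not tested.

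**Figure D3:**
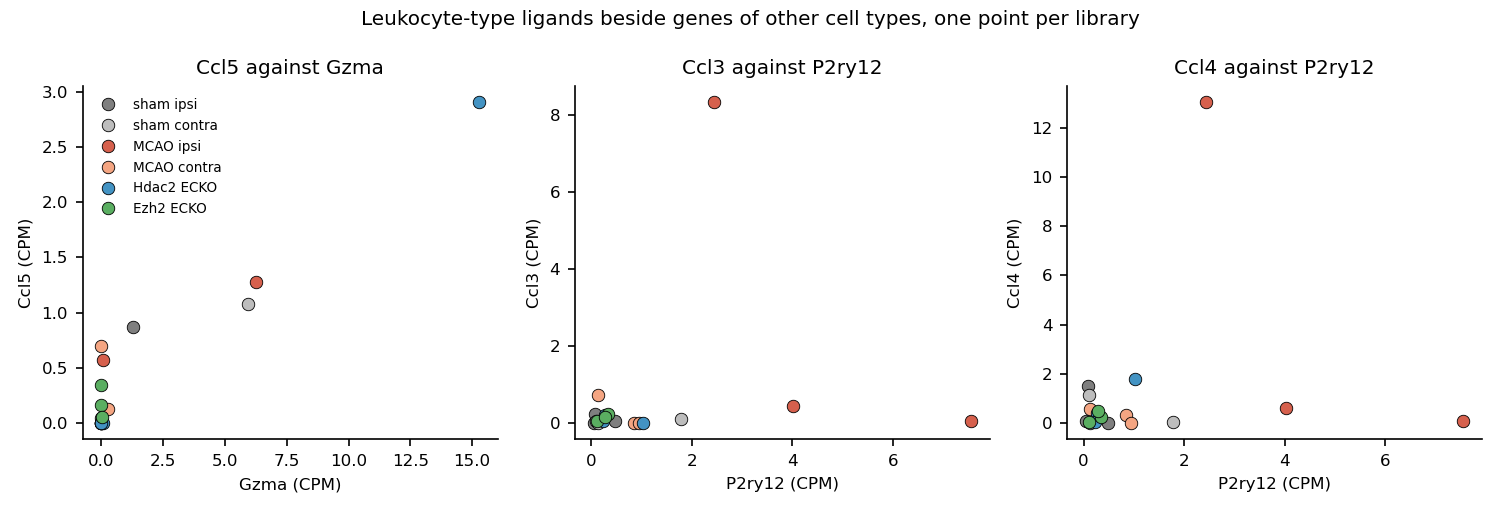
Level in CPM of Ccl5 against Gzma, and of Ccl3 and Ccl4 against P2ry12, with 1 point per library coloured by group. The 3 libraries highest in Ccl5 are the 3 highest in Gzma, 1 of 6 T and NK cell markers, of which Nkg7, Cd3e and Cd3d were at 0 in the library highest in both, while the library at 8.34 CPM of Ccl3 and 13.0 CPM of Ccl4 lies at 2.44 CPM of P2ry12.

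The first question was what occlusion did to these genes on the injured side. After MCAO 15 of 25 members had higher fitted levels, with Cxcl9, Cxcl10 and Ccl27b above and Cxcl15 below sham in every library, but no member passed the test. By edgeR's quasi-likelihood test 0 of 25 members had an adjusted p under 0.05, as had 0 of the 17094 genes tested (0%). At an unadjusted p under 0.05 stood 3 members (12%), beside 7.08% of all genes, and DESeq2 called 0 and voom with sample weights 3 members. Groups did not overlap for 4 of 25 members (16%), a smaller share than the 27.7% of all genes. The fitted log2 differences were 2.56 ± 1.16 (SE) for Ccl27b (adjusted p = 0.682), 2.85 ± 1.55 for Cxcl9 (adjusted p = 0.717), 2.29 ± 1.20 for Cxcl2 (adjusted p = 0.717), 1.82 ± 1.07 for Cxcl10 (adjusted p = 0.745) and 1.34 ± 0.79 for Cxcl1 (adjusted p = 0.745). Ccl3 stood at 4.81 ± 2.10 (adjusted p = 0.667) and at 1.20 without MCAO ipsilateral library 1. Cxcl15 had no count in the MCAO ipsilateral libraries and 0.103, 0.286 and 0.107 CPM in sham, which is at least 2.40-fold lower against 3 counts per library (adjusted p = 0.645). It reached 10 counts in 4 libraries: sham ipsilateral 2, MCAO contralateral 1, Hdac2 ECKO 3 and Ezh2 ECKO 2. Its levels there were 0.286, 0.408, 0.294 and 0.398 CPM. These 4 libraries had the highest receptor background, 637 to 2077 CPM, against 154 to 296 CPM in MCAO ipsilateral libraries. The part of background reads in Cxcl15 was not tested. The members' median log2 difference was 0.82, and the median of all genes was -0.09, with 45.9% higher.

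On the opposite side of the brain 14 of 25 members had higher fitted levels after MCAO, and again no member passed. Of 25 members 0 had an adjusted p under 0.05 by edgeR (0% of all genes), 2 had an unadjusted p under 0.05 (4.41% of all genes), and DESeq2 and voom called 0. Groups did not overlap for 6 members (24%, beside 9.65% of all genes): Ccl24 and Ccl27b were higher and Ccl19, Ccl20, Ccl25 and Cx3cl1 lower after MCAO. Some gaps were narrow: Ccl25 reached down to 8.21 CPM in sham and up to 8.10 CPM after MCAO. The lowest Ccl24 value after MCAO, 0.0428 CPM, lay below 3 counts (0.0643 CPM in that library). Log2 differences were 2.23 ± 1.15 for Ccl27b, 1.36 ± 0.79 for Cxcl1, -1.25 ± 0.64 for Ccl25 and -0.85 ± 0.48 for Cx3cl1, each at an adjusted p of 0.920. Ccl25 stood at -0.75 without MCAO contralateral library 1 and Cx3cl1 at -0.41 without sham contralateral library 2. Ccl24, a CCR3 ligand, and Ccl21a, a CCR7 ligand, had no count in sham contralateral libraries, and against 3 counts per library they were at least 1.72-fold and at least 4.34-fold higher after MCAO, at 0.126, 0.261 and 0.0428 CPM and at 0.691, 0.392 and 0 CPM. The median of the members was 0.95 (0.78 with these 2 at their bounds) and that of all genes 0.17. Both medians turned without MCAO contralateral library 1, to -0.21 over members, with 10 higher and 15 lower, and to -0.13 over all genes.

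Taking both sides in one contrast, 6 MCAO against 6 sham libraries, gave the smallest p-values for occlusion, and still 0 of 25 members passed in edgeR, where 0.152% of all genes did. The labels do not say whether both sides came from the same mice. The fit took the libraries as separate, so there may be fewer mice than libraries. At an unadjusted p under 0.05 stood 4 members, beside all genes' 9.09%. Ccl27b had the smallest p, with 1.58 ± 0.46 CPM after MCAO against 0.297 ± 0.14 CPM in sham (SD, n = 6) and a log2 difference of 2.40 ± 0.82 (adjusted p = 0.285), higher in 6 of 6 libraries, and DESeq2 called it at an adjusted p of 0.00917. It was the 1 member (4%) whose groups did not overlap, beside 1.42% of all genes. Cxcl1 averaged 34.1 ± 22.0 CPM against 13.3 ± 5.03 CPM, a log2 difference of 1.35 ± 0.56 (adjusted p = 0.439 by edgeR), and without the pair of libraries with the highest background it was called, at a log2 difference of 1.58 and an adjusted p of 0.0343. Ccl3 stood at 3.52 ± 1.42 and at 1.72 without MCAO ipsilateral library 1, and Ccl24, at 5.00 ± 1.72, had a single count-bearing sham library. Cx3cl1 and Cxcl12 were lower after MCAO, by log2 differences of -0.70 ± 0.34 (adjusted p = 0.556) and -0.50 ± 0.25 (adjusted p = 0.561). Mural cell markers had lower fitted levels in the same contrast, 5 of 5 pericyte markers (median -1.19) and 3 of 3 tested smooth muscle markers (median -1.21), of which edgeR called 0. The 5 pericyte markers summed to 40.1 to 96.4 CPM in sham and 7.03 to 56.3 CPM in MCAO libraries, and their part in the levels of Cx3cl1 and Cxcl12 was not tested. Voom with sample weights called 7 members: Ccl17, Ccl24, Ccl27b and Cxcl1 higher and Ccl22, Cxcl12 and Cxcl15 lower. The members' median log2 difference was 0.92, with 16 of 25 higher, and that of all genes 0.06.

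Whether occlusion acted differently on the 2 sides was tested as an interaction, and 0 of 25 members passed (smallest adjusted p = 0.941 by edgeR, 1 member at an unadjusted p under 0.05, beside 0 and 578 of the 17094 genes). Between the sides of MCAO brains, 0 members were called by edgeR, DESeq2 or voom (0% of all genes), and 2 had an unadjusted p under 0.05 (3.08% of all genes). Cxcl9 was the member with no overlap (4%, beside 5.37% of all genes), higher ipsilaterally by a log2 difference of 3.71 ± 1.62 (adjusted p = 1). Ccl4 stood at 3.95 ± 2.11 and at 0.27 without MCAO ipsilateral library 1. Cxcl15, with no ipsilateral count, was at least 1.98-fold lower. Its only contralateral counts came from library 1, at 0.408 CPM. In sham brains 0 members were called by any of the 3 tools, and 0 had an unadjusted p under 0.05 (1.85% of all genes). The smallest p-values belonged to Ccl28 (log2 difference 2.73 ± 1.97), Ccl6 (2.09 ± 1.60) and Ccl25 (-0.81 ± 0.63), each at an adjusted p of 1.00, and 3 members did not overlap (12%, beside 15.4% of all genes).

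Endothelial deletion of Hdac2, a histone deacetylase, was compared with MCAO ipsilateral libraries of wild-type mice. Cxcl1 was higher in all 3 Hdac2 ECKO libraries than in any MCAO ipsilateral library, and no member passed the test. In edgeR 0 of 25 members were called, against 0.0117% of all genes, 2 had an unadjusted p under 0.05 (9.85% of all genes), and DESeq2 and voom called 0. Groups did not overlap for 2 members (8%, beside 19.9% of all genes), Cxcl1 higher and Ccl27b lower. Cxcl1 averaged 68.5 ± 14.8 CPM against 26.4 ± 21.5 CPM (SD, n = 3), a log2 difference of 1.37 ± 0.79 (adjusted p = 0.591). Cxcl12 averaged 952 ± 195 CPM against 634 ± 201 CPM, a log2 difference of 0.59 ± 0.35 (adjusted p = 0.603). Ccl3 was lower by a log2 difference of -5.06 ± 2.15 (adjusted p = 0.465), which became -1.44 without MCAO ipsilateral library 1, and Ccl20, a CCR6 ligand, stood at -4.10 ± 2.02 (adjusted p = 0.516) with 1 of 3 Hdac2 ECKO libraries above 0. Ccl28 stood at 3.42 ± 1.95 (adjusted p = 0.588). Cxcl15, with no MCAO ipsilateral count, was at least 1.75-fold higher (adjusted p = 0.476). Its highest value, 0.294 CPM, was in Hdac2 ECKO library 3, 1 of the 4 libraries with the highest receptor background. The median was 0.04 over members and 0.11 over all genes. Without a library it ran from -0.15 (without Hdac2 ECKO library 1) to 0.60 (without MCAO ipsilateral library 3) over members.

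Endothelial deletion of Ezh2, the methyltransferase of Polycomb repressive complex 2, went with lower Cxcl2, Cxcl10 and Ccl17 than in the same MCAO ipsilateral libraries, again short of the test. In edgeR 0 of 25 members were called while 1.46% of all genes were. At an unadjusted p under 0.05 stood 5 members (20%), close to the 19.2% of all genes, and groups did not overlap for 4 (16%, beside 29%): Cxcl10, Ccl17 and Ccl27b lower and Cxcl15 higher. Cxcl2 overlapped, with up to 0.615 CPM with Ezh2 ECKO and down to 0.574 CPM in MCAO ipsilateral libraries. DESeq2 called 1 member, Cxcl2 (adjusted p = 0.0151), and voom 0. Cxcl2 averaged 0.298 ± 0.28 CPM against 3.80 ± 2.83 CPM (SD, n = 3), a log2 difference of -3.66 ± 1.28 (adjusted p = 0.131 by edgeR). Cxcl10 averaged 2.30 ± 1.92 CPM against 11.7 ± 7.26 CPM, a log2 difference of -2.35 ± 1.09 (adjusted p = 0.243), and Cxcl1 stood at -1.44 ± 0.80 (adjusted p = 0.320). Without Ezh2 ECKO library 2 and MCAO contralateral library 1 these became -3.42, -1.82 and -0.91. Ccl17, a CCR4 ligand, was at 0, 0.114 and 0.0280 CPM against 0.137, 1.94 and 2.68 CPM (log2 difference -4.98 ± 2.19, adjusted p = 0.219). Cxcl15 was at least 3.00-fold higher against 3 counts per library (adjusted p = 0.173). Its Ezh2 ECKO libraries were at 0.0539, 0.398 and 0.168 CPM, with the highest value in library 2, where the receptor background was highest. Cxcl12 stood at 0.60 ± 0.35 (adjusted p = 0.339). The members' median log2 difference was -0.66, with 12 higher and 13 lower, where all genes had a median of 0.17. It was 0.37, with 14 higher and 11 lower, without MCAO ipsilateral library 3 and -0.20 without library 1.

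Set against each other, the deletions had their smallest p-values among members at Cxcl1 and Cxcl2, both higher with Hdac2 ECKO, and no member passed in edgeR. Cxcl1 averaged 68.5 ± 14.8 CPM with Hdac2 ECKO and 9.76 ± 8.61 CPM with Ezh2 ECKO (SD, n = 3), a log2 difference of 2.81 ± 0.83 with the smallest p of any member (adjusted p = 0.189 by edgeR). Cxcl2 averaged 5.53 ± 2.16 CPM against 0.298 ± 0.28 CPM, a log2 difference of 4.20 ± 1.32 (adjusted p = 0.225). Cxcl10 averaged 10.4 ± 2.24 CPM against 2.30 ± 1.92 CPM, a log2 difference of 2.17 ± 1.08 (adjusted p = 0.466). DESeq2 called Cxcl1 (adjusted p = 0.0148) and Cxcl2 (adjusted p = 0.00541), while edgeR and voom called 0 of 25 members. In edgeR 0.123% of all genes were called, and 4 members had an unadjusted p under 0.05 (16%, beside 11.2%). Groups did not overlap for 4 members (16%, beside 12.1%): these 3 and Ccl20, at 0, 0 and 0.0588 CPM against 2.53, 0.171 and 0.419 CPM (log2 difference -5.49 ± 2.11, adjusted p = 0.323). Ccl27a stood at 1.29 ± 0.50 (adjusted p = 0.323). Without the pair of libraries with the highest background Cxcl1, Cxcl2 and Cxcl10 stood at 2.23, 3.90 and 1.61. The 2 deletion groups were both compared with the same MCAO ipsilateral libraries, so their differences from MCAO are not independent of each other.

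**Figure D4:**
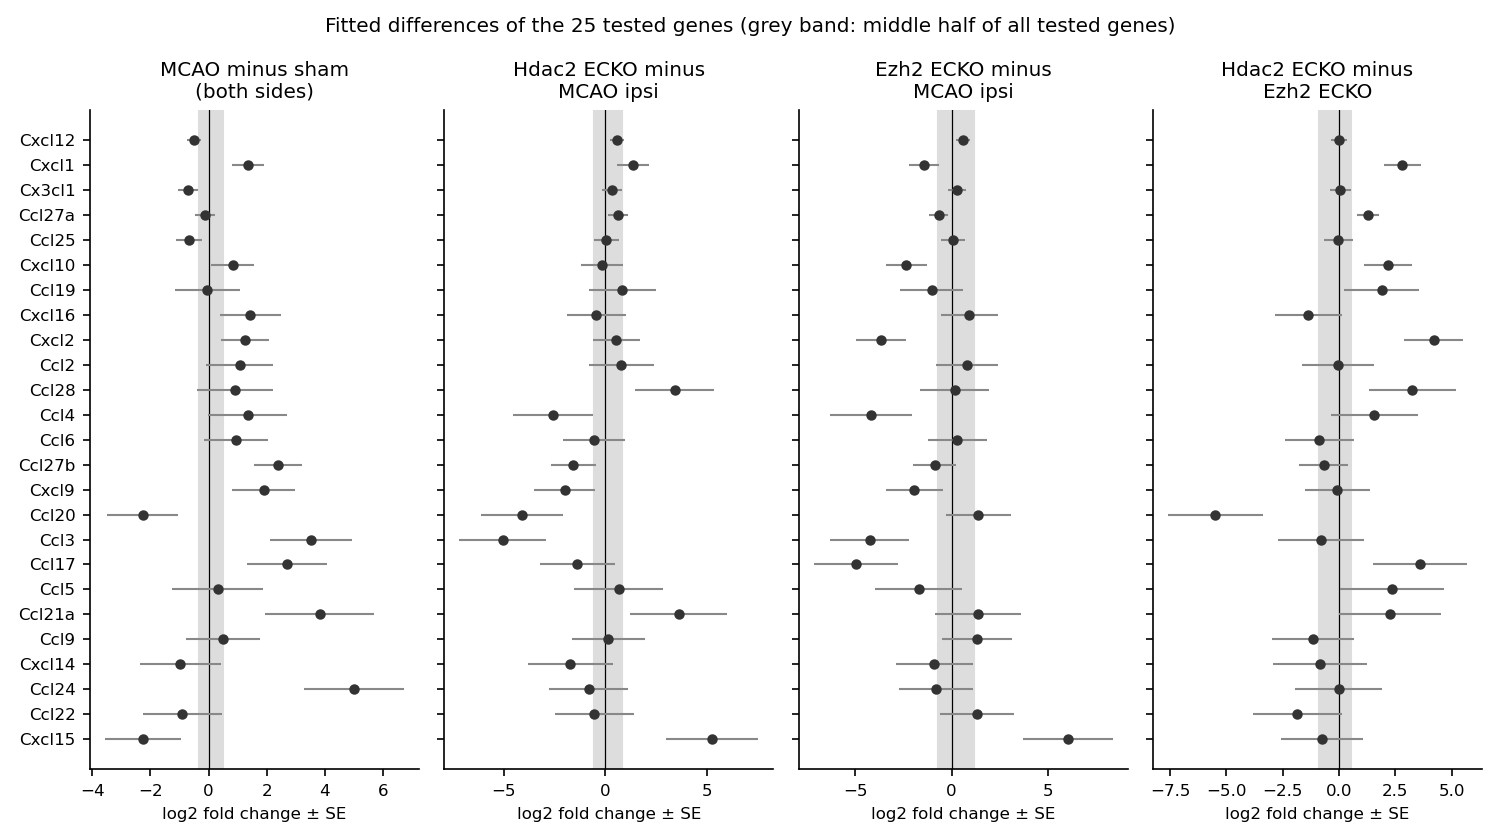
Fitted log2 fold change ± SE of the 25 tested members in 4 comparisons, with a grey band from the lower to the upper quartile of all tested genes. The wide bars belong to the members with few counts, and Cxcl1 and Cxcl2 lie on opposite sides of 0 in the Ezh2 ECKO and the Hdac2 minus Ezh2 panels.

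Markers of blood cells and macrophages were read beside these genes. The 5 red cell genes (4 globins and Alas2) summed to 70.1 to 671 CPM in Ezh2 ECKO libraries, 49294 to 297850 CPM in Hdac2 ECKO libraries and 38267 to 65445 CPM in MCAO ipsilateral libraries. All 5 were above 0 in each library outside Ezh2 ECKO. By edgeR all 5 were called lower with Ezh2 ECKO than in MCAO ipsilateral libraries and 4 were called higher with Hdac2 than with Ezh2 ECKO, while the Hdac2 ECKO sums overlapped those of MCAO. The 6 platelet markers summed to 18.3 to 29.7 CPM with Ezh2 ECKO, 8.44 to 84.4 CPM with Hdac2 ECKO and 35.3 to 41.9 CPM in MCAO ipsilateral. The 6 neutrophil markers summed to 3.35 to 4.13 CPM, 5.59 to 11.3 CPM and 8.54 to 12.9 CPM in these groups. No platelet or neutrophil marker was called in either Ezh2 ECKO comparison. The 8 macrophage and monocyte markers summed to 361 to 553 CPM with Ezh2 ECKO, 712 to 1272 CPM with Hdac2 ECKO and 1307 to 2380 CPM in MCAO ipsilateral libraries, with no overlap, against 653 to 771 CPM in sham ipsilateral ones. Nearly all of that sum was Ly6c2, a monocyte gene that endothelium also expresses, and it was called lower with Ezh2 ECKO than in MCAO (log2 difference -2.12 ± 0.44, adjusted p = 0.0291 by edgeR). Most of the list went the other way: 6 of the 8 markers had higher and 2 lower fitted levels in that comparison (median log2 difference 1.38). The part of these cells in the levels of Cxcl1, Cxcl2 and Cxcl10 was not tested.

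Chemokine receptors were read beside the ligands. All 24 receptors listed were in the table and 19 were tested, of which edgeR called 0 in each of the 8 comparisons. After MCAO 6 of the 19 had higher and 13 lower fitted levels ipsilaterally (median log2 difference -0.52). Over both sides 12 were higher and 7 lower (median 0.14). Ackr3, a scavenger of Cxcl12, averaged 61.3 to 102 CPM by group, and Ccrl2, which holds chemerin on the endothelial surface, 25.9 to 35.3 CPM. Ccr7 was at 3.11, 0 and 11.9 CPM in the Hdac2 ECKO libraries and averaged 0.477 CPM or less in other groups, and Cxcr4, the signalling receptor of Cxcl12, averaged 0.288 to 1.34 CPM.

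Ackr1, the atypical receptor by which venules carry chemokines across the endothelium, had the smallest p of the receptors for MCAO against sham, ipsilaterally and over both sides. It was at 0.330, 1.98 and 0.963 CPM in sham ipsilateral and 58.1, 49.3 and 52.3 CPM in MCAO ipsilateral libraries. Contralaterally it was at 0.716, 0.807 and 8.21 CPM in sham and 0.314, 22.7 and 30.9 CPM in MCAO. With Hdac2 ECKO it was at 32.0, 19.5 and 41.0 CPM and with Ezh2 ECKO at 27.6, 0.285 and 31.9 CPM. The lowest MCAO and the lowest Ezh2 ECKO values are those of the pair of libraries with the highest background. The log2 difference was 5.61 ± 1.40 ipsilaterally (adjusted p = 0.442 by edgeR, 0.0122 by DESeq2) and 4.04 ± 0.92 over both sides (adjusted p = 0.0803 by edgeR, and 0.00133 without that pair). MCAO was above sham in 3 of 3 ipsilateral libraries.

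Of 23 cytokine receptors and transcription factors listed as upstream of chemokines, all were tested and edgeR called 0 in each comparison. After MCAO 16 had higher and 7 lower fitted levels ipsilaterally, and 17 higher and 6 lower over both sides. Against MCAO ipsilateral libraries, 8 were higher and 15 lower with each deletion. With Hdac2 ECKO 15 were higher and 8 lower than with Ezh2 ECKO. The 3 genes that follow were picked from this list. Irf7, an interferon-induced factor, averaged 92.1 ± 50.4 CPM in MCAO ipsilateral and 29.1 ± 10.2 CPM in sham ipsilateral libraries (SD, n = 3), a log2 difference of 1.66 ± 0.49 (adjusted p = 0.509). Irf1, a factor downstream of interferon-gamma, averaged 82.5 ± 19.3 CPM with Hdac2 ECKO and 25.4 ± 3.67 CPM with Ezh2 ECKO, a log2 difference of 1.70 ± 0.44 (adjusted p = 0.119 by edgeR). The libraries did not overlap for Irf1, nor for 12.1% of all genes. Over both sides Stat3, which gp130 cytokines activate, averaged 56.2 ± 12.0 CPM after MCAO and 35.8 ± 4.65 CPM in sham (log2 difference 0.66 ± 0.23, adjusted p = 0.300). Its groups did not overlap, nor did those of 1.42% of all genes.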

How the data were processed

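Sorted cortical endothelium from 18 libraries in 6 groups of 3 was used, grouped and numbered by title. The deposited values are counts per gene. The submitters' processing notes name FastQC, cutadapt, STAR, featureCounts, DESeq2 and build mm10, with no versions, and the deposited table is named normalized. It holds whole numbers with unequal totals (25791401 to 57576255), and 77.3% to 89.4% of counts from 1 to 20 were even, so the values were taken as unscaled counts. A total of 0 columns were left without a sample. The counting's strand and multimapping settings are not given in the sources used here. Floors reflect counting error alone, because no molecular identifiers marked single molecules. Folds given as at least compare the other group's mean with the mean floor of 3 counts, and leave out the spread of that mean.

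The written design named edgeR for counts, and this was used: edgeR 4.0.16 in R 4.3.3, quasi-likelihood F-test, TMM scaling, a single fit of 6 group means to 18 libraries, the 17094 genes with 10 or more counts in 3 or more libraries, and Benjamini-Hochberg adjustment over these, called under 0.05. SE is the log2 difference divided by the square root of F. The fit was tested on simulated data. DESeq2 1.42.0, limma 3.58.1 (voom), other filters and scalings and left-out libraries were alternatives. Members and lists were chosen with earlier results of these data known. Described in full were members called, the 8 highest by mean CPM and the 3 with the smallest p in each comparison; other members named were chosen after their values were seen. Shared windows and overlaps come from GENCODE M21 (GRCm38), which held all 37 members, 36 with the same start. Cxcl11 and Ccl21c were not analysed here.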

Additional observations from a re-analysis of the deposited data

How the results depend on the processing

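No member was called by edgeR in any of the 8 comparisons, and 125 of the 131 recounts under other settings kept a count of 0, those with RLE scaling, other filters, halved counts, a background covariate, only the compared groups or a library left out included (range over left-out libraries: 0 to 0). DESeq2 called 1 member for MCAO against sham over both sides (Ccl27b), 1 for Ezh2 ECKO against MCAO (Cxcl2) and 2 for Hdac2 against Ezh2 ECKO (Cxcl1, Cxcl2). Voom with sample weights called 3 for MCAO against sham ipsilaterally (Ccl27b, Cxcl9, Cxcl15) and 7 over both sides. Leaving out the 2 libraries with the highest background, chosen after seeing the data, gave 1 over both sides (Cxcl1). The cause was not tested. Signs of single genes were followed for the 3 members with the smallest p in each comparison and for other genes picked by hand. None of these changed sign. Other members did: contralaterally 14 were higher and 11 lower, against 9 and 16 with the background covariate. Medians changed sign too. Over all settings the members' median ran from -0.27 to 1.38 contralaterally, from -0.76 to 0.37 for Ezh2 ECKO and from -0.15 to 0.60 for Hdac2 ECKO against MCAO. Leaving out those 2 libraries left Cxcl15 with no count between the MCAO sides, so no value could be given.

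Whether same-numbered libraries share mice could not be told. Correlations of their deviations from group means ran from -0.127 to 0.376 between sham sides and from 0.0347 to 0.393 between MCAO sides. Those of different-numbered libraries ran from -0.508 to 0.361 and from -0.381 to 0.224. With a replicate block 0 members were called in each comparison, and 4 genes in all over both sides, against 26 without it.

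Counts over all genes moved more. For Ezh2 ECKO against MCAO edgeR called 250, from 5 (without MCAO ipsilateral library 1 or 2) to 280 (without library 3) with 1 library left out, 925 without the 2 high-background libraries, and DESeq2 1642. RLE scaling moved the all-gene median there from 0.17 to 0.36, contralaterally from 0.17 to 0.30, between MCAO sides from -0.05 to -0.21 and between deletions from -0.15 to -0.26. Depth limits the 12 untested members, for which fewer than 3 libraries reached 10 counts.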
